A study of Arabidopsis thaliana with 20 samples.

Results

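Among 36809 regions of the Arabidopsis thaliana genome that were open to DNase I in at least 1 of 4 stages of the move from darkness to light, 1265 (3.44%) had a peak in dark-grown seedlings and none after 30 min, 3 h or 24 h of light. These dark-only regions were found by merging overlapping nuclear peaks of the 4 peak lists and keeping those with a dark peak alone, so they are 4.37% of the 28917 dark peaks. All 4 groups were whole 7-day-old seedlings of the Col-0 background that carried the INTACT line UBQ10:NTF::ACT2:birA, in which a nuclear tag is driven by the ubiquitously active UBQ10 promoter and is biotinylated so that nuclei can be captured. The first group was kept in the dark, and the others were dark-grown and then moved to light for 30 min or 3 h, or to LD conditions (long days) for 24 h. A further 3 groups of the same line and age, which the selection did not use, were grown in LD (16 h of light at 22 °C and 8 h of dark at 20 °C). These were an untreated LD control, a spray control unwrapped, sprayed lightly with 0.5% EtOH and left for 3 h, and heat-shocked seedlings, held for 30 min at 45 °C. Each group was represented by 1 library, so differences between groups have no replicate error, and the 95% Wilson intervals printed with shares cover counting error only.

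DNase I cuts DNA where it is not shielded by nucleosomes, and a peak marks a stretch cut often enough to be called open, as at active promoters and enhancers. A seedling in the dark grows by skotomorphogenesis, with a long hypocotyl, a closed hook and unopened cotyledons, and this program depends on the COP1 ubiquitin ligase and on the PIF transcription factors. PIFs are basic helix-loop-helix proteins that bind the G-box (CACGTG) and the related PBE-box (CATGTG) and drive genes of auxin response and cell elongation, and light-activated phytochromes cause their degradation. In whole seedlings, fewer cells with an open site and less opening in each cell cannot be told apart.

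The strongest promoter sites and the sites of elongation genes are shown first as DNA. All sequences are the plus strand of TAIR10.1, cover the whole 150 bp peak and contain no base annotated as untranslated region. The first 2 belong to MPK9 (AT3G18040), a MAP kinase, and ABO3 (AT1G66600), a WRKY factor of abscisic acid response. They had the highest signals of any dark-only region in a promoter window, defined as 1000 bp upstream to 200 bp downstream of a protein-coding gene's start. Capitals mark matches to any of 24 short motifs searched on both strands, here the site II element (TGGGCC or GGCCCA) and the I-box (GATAAG or CTTATC).
MPK9, chr3:6173601-6173750: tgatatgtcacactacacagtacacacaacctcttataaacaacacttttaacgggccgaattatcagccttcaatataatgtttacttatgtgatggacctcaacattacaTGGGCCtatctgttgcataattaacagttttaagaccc
ABO3, chr1:24848001-24848150: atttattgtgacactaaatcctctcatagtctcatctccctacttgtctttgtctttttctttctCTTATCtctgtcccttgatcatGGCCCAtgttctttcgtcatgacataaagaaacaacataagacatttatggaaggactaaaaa

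The next set shows 4 regions at elongation genes and 3 regions that hold several PBE-boxes, with capitals marking every PBE-box (CATGTG or its reverse complement CACATG). SAUR22 (AT5G18050) and SAUR23 (AT5G18060) are divergent neighbours that share 1 region, and SAUR64 (AT1G29450) belongs to another tandem group of the same family of small auxin-up RNA growth proteins. PRE1 (AT5G39860) encodes a helix-loop-helix partner that promotes elongation, and EXPA2 (AT5G05290) encodes an expansin, a wall-loosening protein, and holds no PBE-box. VTC2 (AT4G26850) encodes an enzyme of ascorbate synthesis, and the other pair of multi-box regions lies between genes. These 3 were chosen for their box count after it was seen.
SAUR22 and SAUR23, chr5:5975161-5975310: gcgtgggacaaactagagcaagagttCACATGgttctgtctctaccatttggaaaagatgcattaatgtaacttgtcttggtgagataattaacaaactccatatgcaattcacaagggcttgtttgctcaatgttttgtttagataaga
SAUR64, chr1:10307081-10307230: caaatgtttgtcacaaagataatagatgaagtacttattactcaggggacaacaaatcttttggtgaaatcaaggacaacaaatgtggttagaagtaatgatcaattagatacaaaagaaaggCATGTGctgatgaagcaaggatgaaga
PRE1, chr5:15956421-15956570: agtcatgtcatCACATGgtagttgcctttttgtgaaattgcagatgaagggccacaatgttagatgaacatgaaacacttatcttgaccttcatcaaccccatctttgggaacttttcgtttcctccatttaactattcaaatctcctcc
EXPA2, chr5:1567561-1567710: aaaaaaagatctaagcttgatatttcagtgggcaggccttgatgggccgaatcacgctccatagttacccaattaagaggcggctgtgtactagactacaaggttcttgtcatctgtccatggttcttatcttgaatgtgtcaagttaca
between genes, chr2:17889361-17889510: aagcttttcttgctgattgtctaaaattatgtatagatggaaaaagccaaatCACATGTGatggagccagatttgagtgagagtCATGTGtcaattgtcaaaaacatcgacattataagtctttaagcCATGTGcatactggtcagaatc
between genes, chr1:22099941-22100090: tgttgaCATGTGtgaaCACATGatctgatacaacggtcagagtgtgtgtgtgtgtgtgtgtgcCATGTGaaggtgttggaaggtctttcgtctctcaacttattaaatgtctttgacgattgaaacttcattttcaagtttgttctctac
VTC2, chr4:13502241-13502390: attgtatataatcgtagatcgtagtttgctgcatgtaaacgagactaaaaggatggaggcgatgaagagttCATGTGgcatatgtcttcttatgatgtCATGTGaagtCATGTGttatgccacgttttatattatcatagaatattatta

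Most dark-only regions were weak peaks. The authors' signal, which is comparable only within a list, ran from 36 to 717 over the members with a median of 70, against a median of 148 over all dark peaks. Ranked within the dark list, the median member stood at percentile 10.97, with quartiles of 3.939 and 33.57. Of the 1265 members, 601 (47.5%) were in the lowest decile of dark peaks, 117 (9.25%) in the upper 50% and 18 (1.42%) in the top decile. Members made up 21% of the dark peaks in the lowest decile and 0.623% of those in the top decile. The dark calls chose the members, so these values describe the selection and are no test. Regions seen only at 30 min, only at 3 h or only at 24 h were similarly low in their own lists, with median percentiles of 8.68, 9.692 and 13.92. Regions open at all 4 times had a median of 59.18 in the dark list.

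The 24 h list left out the most dark peaks. Of all dark peaks, 10.8% met no peak of the 30 min list, 11.9% none of the 3 h list and 18.5% none of the 24 h list. These counts use the same dark library and so are not independent, and the members are contained in all 3. The single-time classes held 910 regions at 30 min, 3184 at 3 h and 1025 at 24 h, and 790 regions were open in the dark and at 30 min only. The 7 lists held 26712 to 34637 nuclear peaks, with the shortest at 24 h and the longest in the LD control.

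**Figure D1:**
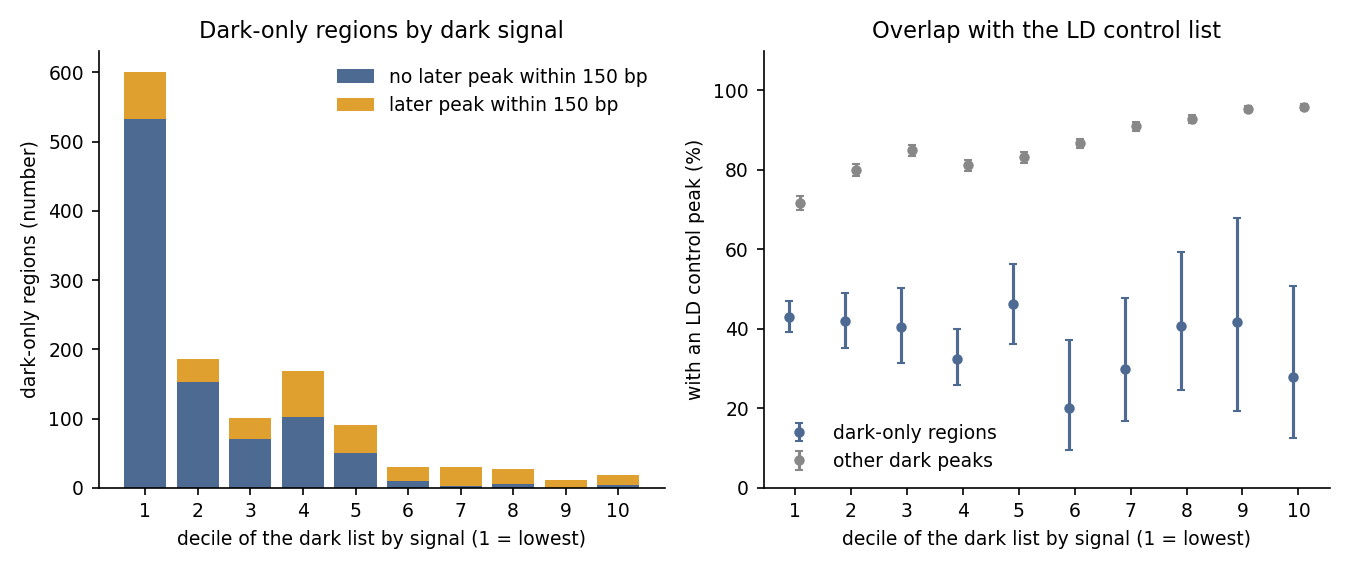
Left, number of dark-only regions in each decile of the dark list by the authors' signal (1 is the lowest), with those that have a later peak within 150 bp in orange: 601 members were in the lowest decile and 18 in the top decile. Right, share of regions with an LD control peak (percent, bars are 95% Wilson intervals) for dark-only regions and other dark peaks in the same deciles: members stood below the other dark peaks in all 10 deciles, at 43.1% against 71.7% in the lowest. By the rule, the other dark peaks lie in regions with a later peak, so this difference is no test.

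Part of the dark-only regions had a later peak beside the dark peak without touching it. A peak of at least 1 later list lay within 150 bp of 332 members (26.2%; 23.9 to 28.7) and within 500 bp of 847 (67%). The median gap to the nearest later peak was 350 bp. This was not particular to dark-only regions. Within 150 bp of a peak of a list without them lay 26% of 30 min only and 26.8% of dark and 30 min only regions. The shares were 38.4% for 24 h only and 13.4% for 3 h only. Strong dark-only members mostly had such a neighbour: 94 of the 117 in the upper 50% by signal (80.3%; 72.2 to 86.5) had a later peak within 150 bp, against 238 of the 1148 others (20.7%; 18.5 to 23.2). All 12 members in the ninth decile of signal and 14 of the 18 in the top decile had one. Of the 332 adjacent members, 166 stood next to a later peak that another dark peak also overlapped, and 166 next to a later peak with no dark peak of its own. The 4 top-decile members without a later peak within 150 bp included the strongest of all, chr5:11754761-11754910 between genes in a gene-poor stretch, with a signal of 717. Its −log10 p was 4.807, against a median of 7.284 over the members, 25.8% of its 31-base words occurred elsewhere in the genome, and it was in none of the LD control, spray control and heat shock lists.

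At the edge of the overlap rule, members and near misses were counted by their dark peaks alone. Just inside the rule were 150 members with a gap of at most 50 bp to a later peak (median percentile 33.86), of which 26% (19.6 to 33.6) had an LD control peak. Just outside were 374 merged regions whose dark peaks overlapped later peaks by at most 50 bp (median percentile 21.4), and 62.4% (57.4 to 67.2) of their 375 dark peaks overlapped an LD control peak. Counted over the whole merged region, which takes in the later peak, the latter share is 75.4%. At the members just inside, the later libraries had a call nearby, and the signal of the later libraries inside the dark peak itself was not analysed here.

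Many dark-only regions were also open in seedlings grown in LD. An LD control peak overlapped 511 members (40.4%; 37.7 to 43.1), a spray control peak 493 (39%; 36.3 to 41.7) and a heat shock peak 415 (32.8%; 30.3 to 35.4). In all light-series regions, which include wider merged ones, these shares were 77.2%, 75.2% and 75.6%. At least 1 of the 3 lists had a peak at 717 members (56.7%), all 3 had one at 229 (18.1%), and none had one at 548 (43.3%), against 12.6% of all light-series regions without a peak in any of the 3. Peaks in a single one of these lists were found at 89 members for the LD control, 93 for the spray control and 62 for the heat shock. Pairs without the remaining list numbered 120 for LD and spray control, 73 for LD control and heat shock and 51 for spray control and heat shock.

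The share with an LD control peak was between those of the other single-time classes. It was 29.7% (26.8 to 32.7) for regions seen only at 30 min, 46.5% (44.8 to 48.3) for those only at 3 h and 25.6% (23 to 28.3) for those only at 24 h. Regions open in the dark and at 30 min only stood at 50% (46.5 to 53.5), and those open at all 4 times at 92.6%, but both classes merge several peaks and so are wider. Counted on the dark peaks alone, these shares were 49.7% (46.3 to 53.2) and 91.6% (91.3 to 92), and the dark-only interval lay below both. Among dark peaks of like signal the dark-only share was also the lower in each decile of the list. In the lowest decile by signal 43.1% of members (39.2 to 47.1) had an LD control peak, against 71.7% (69.8 to 73.5) of the other dark peaks. In the top decile the shares were 27.8% (12.5 to 50.9) of 18 members and 95.9% (95.1 to 96.6) of the others. By the rule, the other dark peaks and both wider classes lie in regions that have a later peak, while members have none. These differences therefore describe the selection and are no test, also among peaks of like signal. Adjacent members, with a later peak within 150 bp, had an LD control peak in 30.1% (25.4 to 35.3) and the rest in 44.1% (40.9 to 47.3).

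**Figure D2:**
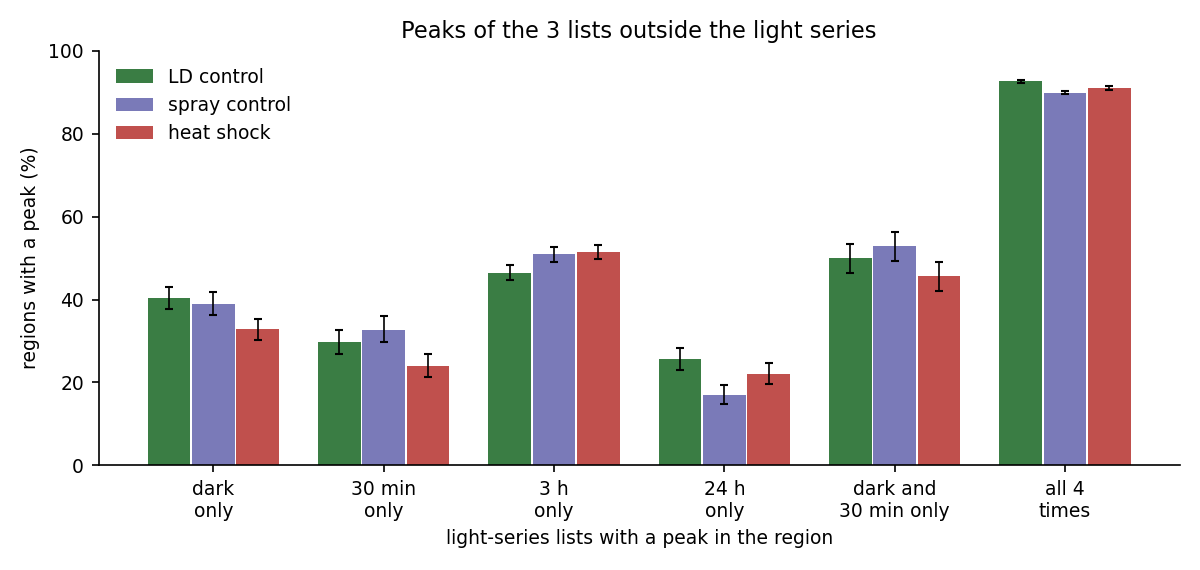
Share of regions (vertical axis, percent, with 95% Wilson intervals) that overlapped a peak of the LD control, spray control or heat shock list, for 6 classes of light-series regions. Dark-only regions stood at 40.4%, 39% and 32.8%, and regions open at all 4 times at 92.6%, 89.9% and 91% over their wider merged stretches.

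Among the 6 classes compared, dark-only regions had the smallest share in promoter windows, while their shares in coding sequence and between genes were each close to that of 1 other class. By midpoint, 499 (39.4%; 36.8 to 42.2) were in a promoter window, 25 in a 5′ UTR, 141 (11.1%; 9.53 to 13) in coding sequence, 53 in an intron, 66 in a 3′ UTR, 28 in another gene or pseudogene and 453 (35.8%; 33.2 to 38.5) between genes. The promoter share was 63.7% (63.1 to 64.3) for regions open at all 4 times, 45.4% (42.2 to 48.6) for 30 min only, 52.3% (50.6 to 54.1) for 3 h only and 51.1% (48.1 to 54.2) for 24 h only. The median distance to the nearest gene start was 1057 bp for dark-only regions, against 887 bp for 30 min only and 316 bp for regions open at all 4 times. Regions open in the dark and at 30 min only lay between genes in 33.9% (30.7 to 37.3), an interval that overlaps the dark-only one. Coding sequence held 2.15% of the regions open at all 4 times and 10.2% (8.42 to 12.4) of those open at 30 min only.

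The members in coding sequence were spread along their genes and were weak. Their median position was 61.6% of the way from the gene's start to its end, with quartiles of 37.3% and 78.4%. The strongest was in AT4G37690, a galactosyl transferase family gene, at chr4:17709461-17709610, with a signal of 269 and a peak in the LD control but not in the spray control or heat shock lists. In the promoter windows 44.1% of members (39.8 to 48.5) had an LD control peak. The 5 nuclear chromosomes held 351, 213, 224, 178 and 299 members in the order 1 to 5. These were 3.59%, 3.67%, 3.13%, 3.23% and 3.49% of each chromosome's light-series regions, near the 3.44% over all regions.

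**Figure D3:**
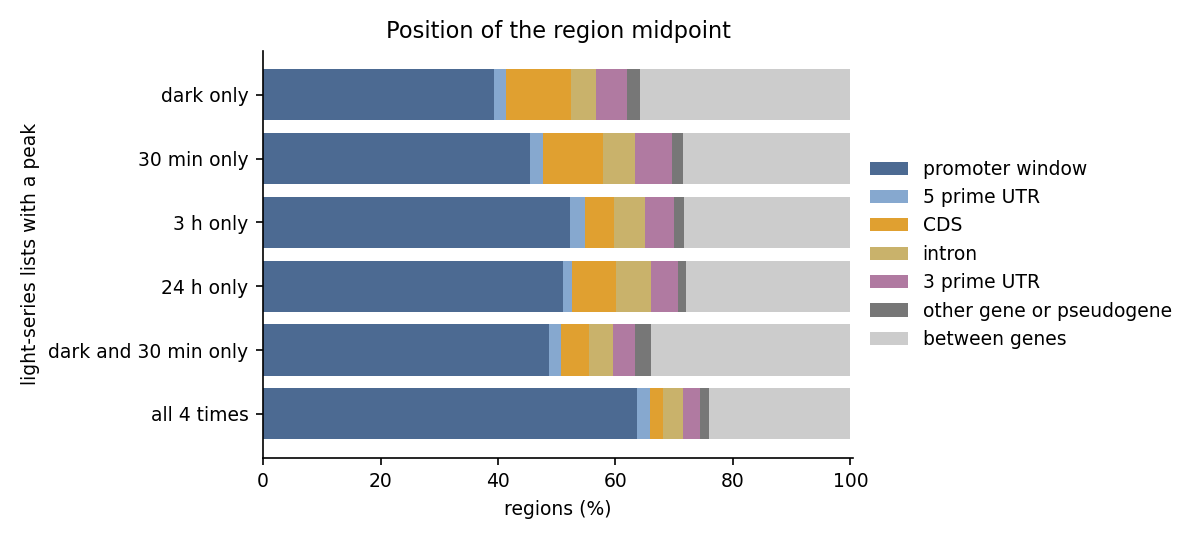
Position of region midpoints relative to genes, as stacked percentages of regions (horizontal axis) for 6 classes of light-series regions (rows, named by the lists with a peak); these are full counts with no error bars. Dark-only regions had 39.4% in promoter windows, 11.1% in coding sequence and 35.8% between genes, against 63.7%, 2.15% and 24% for regions open at all 4 times.

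A minority of the dark-only regions lay in gene-poor parts of the chromosomes. In 161 of the 1193 bins of 100 kb with fewer than 10 gene starts there were 77 members (6.09%; 4.9 to 7.54), against 1.21% (0.676 to 2.15) of 30 min only and 2.58% (2.08 to 3.19) of 3 h only regions. Of these 77 members, 66 lay between genes, 8 (10.4%; 5.36 to 19.2) had an LD control peak, and in 32 at least 50% of the 31-base words also occurred elsewhere in the genome. Short reads from such repeated sequence cannot be assigned to 1 copy with certainty, and how the authors treated them is not given in the sources used here. Over all members 34 (2.69%) were repeated in this way, and none of these 34 had an LD control peak. The gene-poor share of the whole lists was 2.02% in the dark and 1.54% to 1.92% in the other 6.

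The PBE-box was the 6-letter word with the largest excess in the dark-only regions over the other single-time regions and over those open at all 4 times. In the central 150 bp, CATGTG on either strand occurred in 212 members (16.8%; 14.8 to 18.9), against 10.8% of all light-series regions and 10.4% (9.96 to 10.8) of those open at all 4 times. The shares at 30 min only, 3 h only and 24 h only were 10.1% (8.32 to 12.2), 9.33% (8.37 to 10.4) and 9.95% (8.27 to 11.9). Regions open in the dark and at 30 min only had 16.5% (14 to 19.2), and those open in the dark and at 24 h only had 15% (11.4 to 19.4). Over the 15 possible patterns of presence in the 4 lists, the 8 patterns that include the dark ranged from 10.4% to 16.8% and the 7 without it from 6.94% to 10.1%. A rearranged box (CTAGTG) occurred in 4.43% of dark-only regions and 4.06% of all regions.

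Among all 2080 words of 6 letters, each counted with its reverse complement, CATGTG ranked first by the difference between the dark-only share and that of the other single-time regions (9.59%), at 7.17 percentage points. It also ranked first by the difference from regions open at all 4 times, at 6.40 points. The second word in both orders was CAAGAA, at 18.3% against 12.7% in the other single-time regions. Several high ranks were words that overlap the box, such as ACATGA and CATGTA. Without the members in gene-poor bins the PBE-box share was 15.3% (182 of 1188), and its rank was first against the other single-time regions and second against those open at all 4 times. The overlapping word CATGTA was then second and first, and CAAGAA was not among the first 5 in either order.

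The G-box behaved differently. CACGTG occurred in 69 dark-only regions (5.45%), close to the 5.84% of 3 h only and 5.44% of dark and 30 min only regions, and below the 11.1% of regions open at all 4 times and the 8.96% of all light-series regions. Matches to the G-box were densest near the centre, with 3.32 per 100 dark-only regions within 25 bp of the centre and 0.87 between 50 and 75 bp. PBE-box matches in the same regions were level across the window, at 6.64, 6.88 and 6.48 per 100 regions in steps of 25 bp outward. Neither profile was particular to dark-only regions. In the other single-time regions the PBE-box stood at 3.57, 3.71 and 3.48, and at all 4 times at 4.18, 3.97 and 3.58. The G-box fell outward from 2.34 to 1.23 in the former and from 5.84 to 2.67 in the latter. Either box was present in 272 members (21.5%) and both in 9. A match gives the letters in the window and does not show that a factor was bound there.

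The PBE-box share varied with position and with the lists the selection did not use. It was 13.8% (11.1 to 17.1) of members in promoter windows, against 8.14% (7.15 to 9.26) in the other single-time classes, and 22.5% (18.9 to 26.6) of members between genes, against 13.1% (11.5 to 15). Members with an LD control peak had the box in 21.1% (17.8 to 24.9) and those without in 13.8% (11.5 to 16.4), so the box was not confined to regions absent from light-grown seedlings. By signal it was 14.8% (12.2 to 17.9) in the lowest decile and 16.2% (10.6 to 24) in the upper 50%, where the other dark regions had 10% (8.87 to 11.3) and 11.7% (11.1 to 12.2). The 77 gene-poor members had the box in 39% (28.8 to 50.1). Of these 77, 66 lay between genes and so are part of the share of 22.5% there, which is not given without them. On chromosome 5 lay 34 of the 77, and in 32 at least 50% of the 31-base words occurred elsewhere in the genome. Copies of a repeat are not independent items, so this interval may be too narrow.

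Copies of the box were mostly single. Of the 212 members, 183 held 1, 20 held 2 and 9 held 3 or more matches. The region at chr2:17889361-17889510, printed above, held 4, had a signal of 93 and was overlapped by a peak in the LD control, spray control and heat shock lists. The region at chr1:22099941-22100090 held 3, had a signal of 125 and was likewise present in those 3 lists. The VTC2 region held 3, had a signal of 97, lay at -614 bp (upstream) from the gene's start and 30 bp from a later peak, and was in none of the 3.

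**Figure D4:**
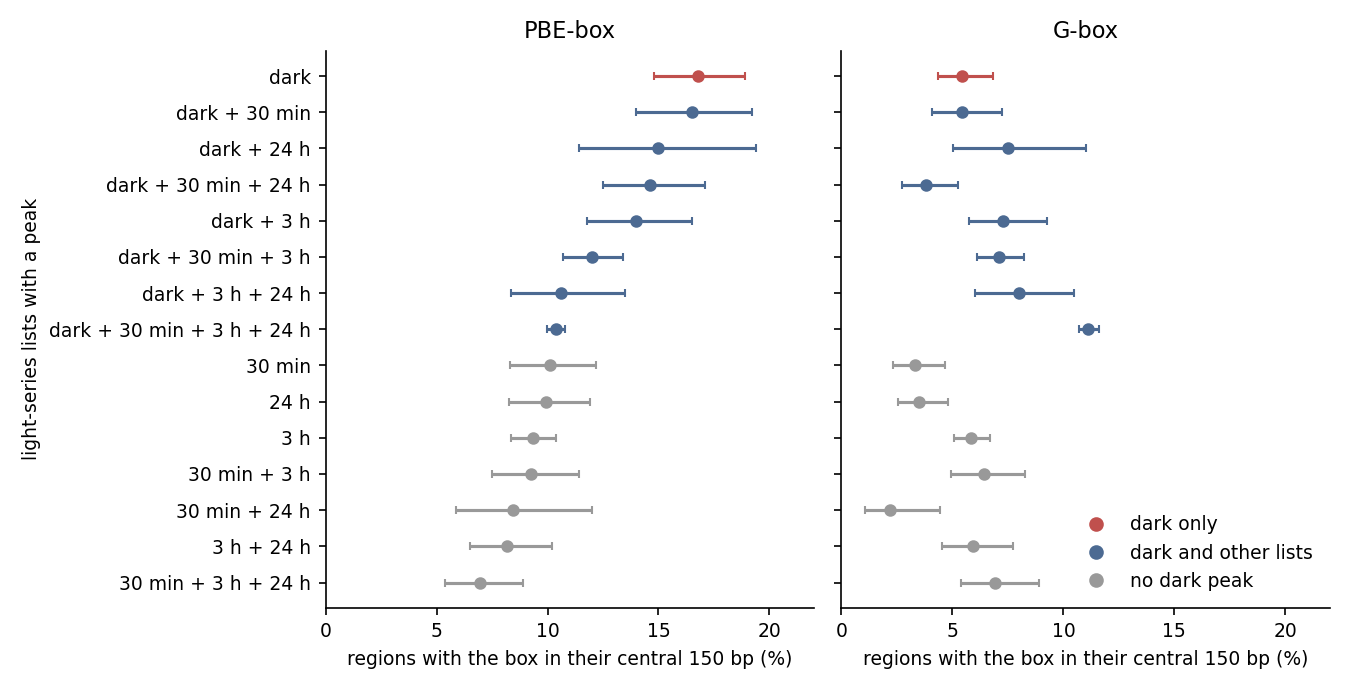
Share of regions (horizontal axes, percent, bars are 95% Wilson intervals) whose central 150 bp hold the PBE-box (left) or the G-box (right) on either strand, for the 15 patterns of presence in the 4 light-series lists (rows). The PBE-box stood at 16.8% in dark-only regions and at 6.94% to 10.1% in the 7 patterns without a dark peak, while the G-box was highest, at 11.1%, in regions open at all 4 times.

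Among the other motifs the widest gap was to the regions open at all 4 times. The site II element (TGGGCC), common in promoters of growth and housekeeping genes, was in 6.4% of dark-only regions, 5.82% of 30 min only regions and 22.3% of those open at all 4 times, with 17.1% over all regions. The RY element (CATGCA), known from seed genes, was in 9.64% (8.14 to 11.4) of dark-only regions, 8.79% of 30 min only, 9.24% of dark and 30 min only and 6.46% of all regions. The W-box form TTGACT, bound by WRKY factors, was in 14.3% of dark-only, 22.5% of 30 min only and 16% of all regions. The I-box (GATAAG) stood at 10.9% against 10.3% over all regions, and the auxin response element TGTCTC at 11% against 9.13%. The evening element AAAATATCT of clock-controlled genes was in only 4 dark-only regions (0.316%; 0.123 to 0.81), against 0.929% of all regions. Dark and 30 min only regions had it in 0.633% (0.271 to 1.47).

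Dark-only regions touched the promoter windows of 601 of 27444 protein-coding genes (2.19%), and the promoter window or transcribed span of 946 (3.45%). By the same measure 1.72% of genes had a 30 min only region in the promoter window, 6.99% a 3 h only region and 2.27% a 24 h only region. Most of these promoters held other peaks: 425 of the 601 genes (70.7%) had another dark peak in the window, and 474, 507 and 478 had a promoter peak at 30 min, 3 h and 24 h. Of the 601 genes, 77 (12.8%) had no promoter peak at any later time, against 90 of the 16669 genes with a dark promoter peak (0.54%). The members were selected for meeting no later peak, so this difference is no test. No gene had 3 or more dark-only regions, and 22 had 2 in promoter window and span together, among them YUC11, which encodes an enzyme of auxin synthesis.

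The strongest promoter members were at genes of varied function. The MPK9 region had a signal of 599, stood at -564 bp (upstream) from the start and 30 bp from a later peak, and was in the LD control, spray control and heat shock lists. The ABO3 region had 540 and was also in all 3. These were followed by AT1G28260, an Est1-type telomerase protein gene, at 474, the mitochondrial protease gene ftsh3 at 433, AT2G01023 of unknown function at 427 and MYBL2, a repressor of flavonoid genes, at 411. After these came AT2G25482 at 403, 1 region shared by the divergent genes SCPL49 and SPD1 at 392, AT1G65510 at 386, AT4G25620 at 359 and AT5G65910 at 349. Each of these 12 genes kept at least 1 promoter peak at 30 min, 3 h and 24 h, and each of their regions had a later peak within 150 bp. Of AT1G28260, AT2G01023 and AT2G25482, none had its region in any of the LD control, spray control or heat shock lists.

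Genes whose promoter windows had a dark-only region and no later peak formed a different set. The highest signals here were at AT5G57910, annotated as an rRNA methyltransferase (213), PIP5K5, a phosphoinositide kinase (132), CRK26, a receptor-like kinase (125), AT2G30310, a GDSL-type lipase gene (112), and AGP4, an arabinogalactan protein of the cell wall (98). They also included the boron exporter gene BOR1 (82), SAUR22 and SAUR23 (77), SAUR29 (74), GATA2 (68) and EXPA2 (61). The nearest later peak lay 50 bp from the AT5G57910 region, 150 bp from that of PIP5K5 and 190 bp from that of CRK26. For AT2G30310 and AGP4 the gaps were 310 and 1150 bp. A promoter window without a later peak can thus have one just outside it. The AT5G57910 and AGP4 regions were present in all 3 of the LD control, spray control and heat shock lists, and the AT2G30310 region in none. These genes were chosen by their pattern after it was seen, apart from the listed ones.

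Of 24 gene lists with 450 distinct genes, 23 genes had a dark-only region in the promoter window, and SAUR growth genes had the largest share of any list. All 19 SAUR genes had a dark promoter peak of some kind, against 60.7% of all genes, so a share over all genes is a low base for them. Of the 19 SAUR genes, 5 had a dark-only region in the promoter window (26.3%, against 2.19% of all genes), in 4 distinct regions. The number was 10 where a shared peak needed 75 bp of overlap, 8 with lists of equal length, 13 without the 30 min list, 3 with a shorter promoter window and 0 in the upper 50% of dark peaks by signal. The 4 regions were those of SAUR9 with a signal of 91, SAUR64 with 78, SAUR22 and SAUR23 together with 77 and SAUR50 with 73. All 4 regions had a peak in the LD control list. The SAUR9 region was also in the spray control and heat shock lists, and those of SAUR64, SAUR22 and SAUR23, and SAUR50 were in neither. The signals stood at percentiles 13.1 to 23.4 of the dark list, so no SAUR region was a strong peak. Part of the SAUR22 and SAUR23 region is repeated, with 9.17% of its 31-base words found elsewhere in the genome.

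More SAUR promoters were without a peak at 3 h and 24 h than at 30 min. All 19 SAUR genes had a promoter peak in the dark, 17 at 30 min, 9 at 3 h and 5 at 24 h, and 19, 16 and 19 had one in the LD control, spray control and heat shock lists. Of the 19, 10 (52.6%) had a dark promoter peak and none at 3 h and 24 h, against 177 of the 16669 genes with a dark promoter peak (1.06%). These were SAUR19 to SAUR24, SAUR61, SAUR62, SAUR64 and SAUR68, and all 10 had a promoter peak in the LD control. Their 10 distinct dark peaks had signals of 60 to 135. Of these 10 peaks, 8 overlapped a peak at 30 min, 10 in the LD control list, 7 a spray control peak and 8 a heat shock peak. A region open in the dark and at 30 min only touched the promoter windows of 8 SAUR genes. Neighbouring SAUR genes share peaks and resemble each other in sequence, so the genes are not independent items. The SAUR counts in the light series also use the peak calls that the selection used. The list was made with earlier results of these data known, and the counts were examined after seeing the data. They are a description and no test.

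**Figure D5:**
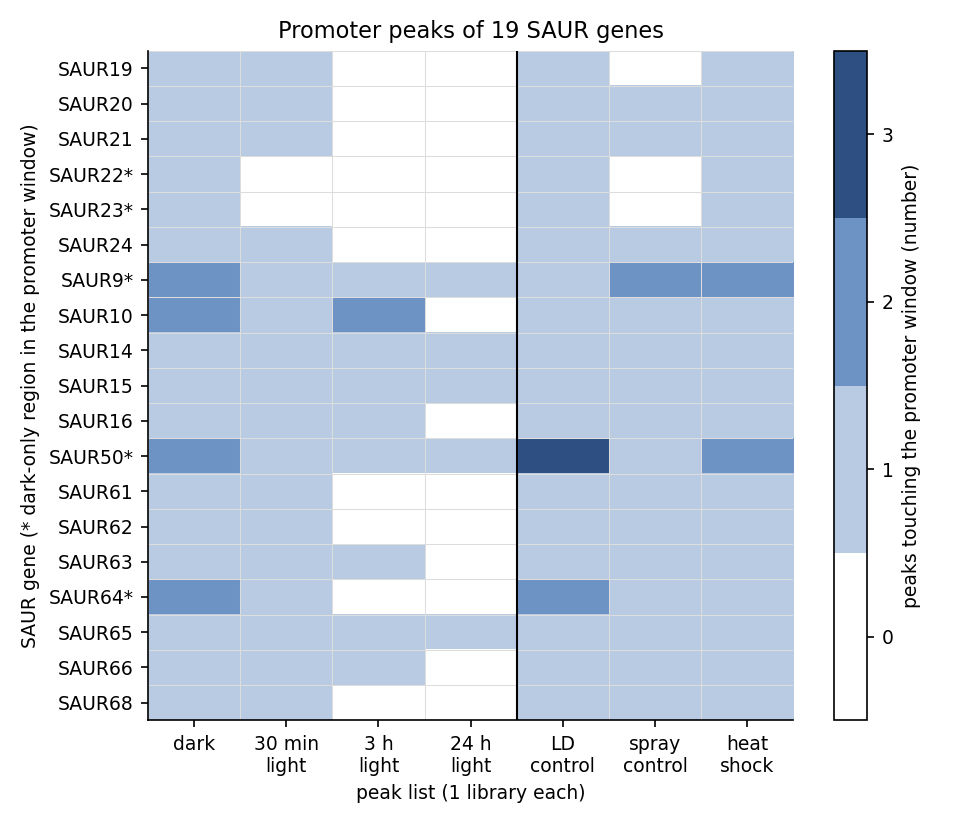
Number of peaks touching the promoter window (colour scale, 0 to 3) of each of the 19 listed SAUR genes (rows) in each of the 7 peak lists (columns, 1 library each); an asterisk marks the 5 genes with a dark-only region there. All 19 genes have at least 1 peak in the dark and in the LD control, and 5 have one at 24 h.

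Other elongation lists had fewer genes with a dark-only promoter region. The shares were 16.7% of cell wall growth, 15.8% of brassinosteroid and 8% of auxin genes, against 2.19% of all genes. Of 24 cell wall growth genes, 4 had a dark-only promoter region: XTH19 (105), XTH9 (53) and XTH33 (49), which encode xyloglucan endotransglucosylases/hydrolases that rebuild wall polymers, and EXPA2 (61). The EXPA2 and XTH9 regions were in all 3 of the lists the selection did not use, the XTH33 region in the spray control and heat shock lists, and the XTH19 region in none. Of 19 brassinosteroid genes, 3 had one: SOB7, also named CYP72C1, which encodes an enzyme that inactivates brassinosteroids (222), the transcription factor gene BZR1 (102) and BEE1, a helix-loop-helix gene of early response (68). A member also lay in the 3′ UTR of the receptor gene BRI1, with a signal of 103. Of 25 auxin genes, 2 had one, at the transcriptional repressor gene IAA3 (125) and the efflux carrier gene PIN7 (114). The IAA3 region was in none of the other 3 lists, while the PIN7 region was in the LD and spray control lists. Losses of peaks at several of these auxin and cell wall genes were among the earlier results from which the lists were drawn, so their appearance here is not independent evidence.

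In the PIF and helix-loop-helix partner list, PRE1 alone of 20 genes had a dark-only promoter region, with a signal of 67 and a peak in all 3 of the lists not used. PRE1 had 2 promoter peaks in the dark, 0 at 30 min, 1 at 3 h and 1 at 24 h. The factors themselves, PIF1, PIF3, PIF4 and PIF5, had none, and their promoter windows held 1, 1, 2 and 2 peaks in the dark and at least as many at 30 min, 3 h and 24 h. Likewise PHYA, PHYB and CRY1, which encode photoreceptors, COP1, and HY5 and HFR1, activators of photomorphogenesis, had no dark-only region and held promoter peaks in all 4 light-series lists. The 13 photoreceptor genes and the 13 repressors of light signalling had no dark-only promoter region, at a share of 2.19% over all genes. GATA2 was the single activator of light signalling with one, of 18, and it had no other promoter peak in the light series.

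Dark-only regions also touched the promoter window of 1 gene each in 7 further lists of 9 to 21 genes, where 2.19% of all genes had one. A single gene does not set a list this short apart from that share. These were ACS8, for ethylene synthesis, with a signal of 72 among 20 ethylene and apical hook genes, ATHB4 (67) among 9 shade and HD-ZIP II genes, and DIN2, a sugar-starvation glucosidase (297), among 19. They also included the clock gene RVE8 (117) among 19, the seed storage gene CRU3 (52) among 21, the guard cell potassium channel gene GORK (73) among 16, and SUC2, for phloem sucrose loading (65), among 21 vascular genes. DIN2 had the strongest region of any listed gene, 130 bp from a later peak and in none of the LD control, spray control or heat shock lists. The DIN2 promoter window held 2 peaks in the dark and 1 in each of the other 6 lists.

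The remaining lists had no dark-only promoter region, where 2.19% of all genes had one. These were 20 gibberellin, 18 chlorophyll synthesis, 35 light harvesting and photosystem, 12 plastid regulator, 17 early light protection and flavonoid, 18 lipid mobilisation, 23 root, 17 epidermis and trichome and 14 housekeeping genes. A dark peak of any kind touched the promoter windows of 5 of the 23 root, 10 of the 16 guard cell, 11 of the 17 epidermis and trichome and 9 of the 21 vascular genes, against 60.7% of all protein-coding genes. In the transcribed span but not the promoter window, members touched 7 more listed genes, which were PAR1, BRI1, PRR7, PSBO1, LEC1, HAT3 and SEOR1. Of further genes followed in every list, HB-2, also named ATHB2, IAA19, DIN6 and EIN3 had no dark-only region and kept promoter peaks in all 7 lists. HLS1 of the apical hook had no dark promoter peak and 1 at 3 h, PORA had none in the light series and 1 in each of the other 3 lists, and XTH15 had none in any list.

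Of the 22 distinct dark-only regions in the promoter windows of listed genes, 6 held the PBE-box and 0 the G-box. Over all 499 members with a midpoint in a promoter window the shares were 13.8% (11.1 to 17.1) and 4.81% (3.25 to 7.06). With only 22 regions, a difference from these shares was not tested. The 6 regions were those of SAUR22 and SAUR23, SAUR64, PRE1, PIN7, XTH19 and SOB7. The sequences printed above show the single box of the SAUR22 and SAUR23, SAUR64 and PRE1 regions, whose midpoints lie at -148, -560 and -873 bp from the starts of SAUR22, SAUR64 and PRE1, where negative values are upstream.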

How the data were processed

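Peak lists of 14 DNase I-seq samples in 7 conditions were used; 6 RNA-seq samples were not analysed here. Nuclei captured through biotin received 45 units of DNase I over 3 min (at 25 °C), and short double-cut fragments were sequenced, per the labels' protocols. Each library is listed with a single-end and a paired-end file, which were byte-identical and counted once. Reads were handled with CASAVA 1.8.2 and Bowtie 0.12.7 on build TAIR10, per the submitters' processing notes. How peaks were called, at what threshold, and how repeated reads were treated is not given in the sources used here. Some samples were subsampled to equal read depth according to the series text, without a label that marks them.

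The deposited signal column holds a whole number per peak from the authors, with no normalization stated, and was compared only within a list. The authors' deposited −log10 p-value per peak ends at a ceiling of 324, reached by 52 members, and was used only to describe peaks. Read depth is unknown, and the 7 lists held 26712 to 34637 nuclear peaks with median signals of 148 (dark) to 1036 (spray control), and the spray control list held 474 organelle peaks, which were left out.

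Nuclear peaks that overlapped by at least 1 bp were merged in Python 3.11.15 (numpy 2.4.6, scipy 1.17.1, matplotlib 3.10.9). Positions and sequences came from RefSeq TAIR10.1. As a check of the build, 59.8% of dark peaks lay in promoter windows, 27.8% did so after a shift of 5000 bp, and the windows cover 25% of the genome. With 1 library per condition there are no tests or p-values, and shares carry Wilson 95% intervals. The scripts were tested on simulated peak lists and recovered the regions placed in them.

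Members and the 24 gene lists were chosen with earlier results of these data known. Of 461 symbols written, 11 were not matched or were dropped, leaving 450 genes. Named were up to 4 genes per list by signal, the 12 genes with the strongest promoter members, genes with 3 or more members and 18 genes named whatever their values. SAUR values, the counts of all 6-letter words, the gene-poor bins and the overlaps counted on dark peaks alone were examined after seeing the data.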

Additional observations from a re-analysis of the deposited data

How the results depend on the processing

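The number of dark-only regions rested on how strictly absence was defined. Requiring an overlap of at least 75 bp for a shared peak gave 2067 regions and 1083 genes with one in the promoter window, with 33.4% overlapped in the LD control, 50.9% in any of the 3 lists not used, 43.6% in promoter windows, 54.9% within 150 bp of a later peak and a median percentile of 16.8. Unlike the 26.2% reported above, this 54.9% also counts later peaks that overlap the dark peak by less than 75 bp. Counting any later peak within 150 bp as present gave 44.1%, 60.2% and a median percentile of 8 for LD control, any list and signal. Keeping the upper 50% of dark peaks gave 117 regions and 71 genes, with 30.8% in the LD control, 51.3% in promoter windows, 80.3% near a later peak and a median percentile of 69.4. Without the 30 min list the rule gave 2081 regions and 1062 genes, with 44.2% in the LD control, 62% in any list, 43.2% in promoter windows and a median percentile of 15.5. Without the 3 h list it gave 2142 regions and 1102 genes, with 52.4%, 69.2%, 43.4% and 21.2% near a later peak. The last share counts peaks of the 30 min and 24 h lists alone. Without the 24 h list the median percentile was 14.9. Cutting each list to the shortest gave 53.1% in any list, a median percentile of 19.7 and a PBE-box share of 19.9%. A promoter window of 500 bp upstream to 100 bp downstream gave 19.7% and 345 genes. In all, 39 of 74 alternative values moved beyond their limit (the interval of a share, or 1.5 times a count) and 35 did not; part of this follows from the choice itself, such as fewer peaks under a signal limit, and otherwise the cause was not tested.

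The PBE-box alternatives, the SAUR counts and the removal of gene-poor bins were added after seeing the data. SAUR genes with a dark-only promoter region numbered 5 as reported, 10 at 75 bp of overlap, 0 in the upper 50% by signal, 8 with lists of equal length, 13 without the 30 min list and 3 with the shorter window. No paired analysis was possible because each condition has 1 library, and for the same reason no replicate could be left out. Depth is unknown, and a region without a peak in a later list is one not called there, whatever its signal.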
